A study of Mus musculus with 6 samples.

Results

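Igfn1, Ky, Flna and Flnc are 4 of the 35976 genes in expression tables of cultured mouse satellite cells (SCs), the muscle stem cells, and were selected by gene symbol from results on the difference between NF-YAcKO and NF-YAfl/fl cells that were already known. The values of that difference are therefore given for these genes as a description, without a test. All 4 were among the 17348 genes that passed the filter for testing, a count above 10 in 2 or more libraries. Ky passed through the NF-YAfl/fl libraries alone, as its largest count in an NF-YAcKO library was 7.

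NF-YAcKO mice carried floxed Nfya alleles and a tamoxifen-activated Cre recombinase (CreERT2) driven from Pax7, so that the DNA-binding subunit of the transcription factor NF-Y was targeted in Pax7-expressing cells. NF-YAfl/fl mice carried the floxed alleles without Cre, and both genotypes received tamoxifen (20 mg/ml) at an age of 5 to 7 weeks per the labels, or 6 to 8 weeks per the study's methods. SCs were enriched from hindlimb muscle by depletion of cells bearing CD31, CD45, CD11b or Sca1 and were kept for 4 days in growth medium. The 3 NF-YAcKO libraries held 31040863 to 41118984 expected counts and the 3 NF-YAfl/fl libraries 26936230 to 33316730. The labels do not say that replicates came from separate mice, so the spread between libraries may in part be technical.

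An entry for the deleted Nfya allele took 22.3% to 34.2% of the Nfya counts in the NF-YAcKO libraries and received 0 counts in each NF-YAfl/fl library. The level of Nfya as a whole did not part the genotypes. Xist, the RNA of the inactive X chromosome, was at 45.5 to 54.5 TPM (a level per transcript length and library) in NF-YAcKO and 0.02 to 0.03 TPM in NF-YAfl/fl libraries, and the Y-linked Ddx3y was at 0.01 to 0.02 against 16.8 to 25.9 TPM. The study's methods name male mice. Sex-linked expression parted the libraries exactly as genotype did, so the effects of sex and genotype cannot be told apart in any comparison below. This holds for autosomal genes and transcript shares as well as for the X-linked genes Flna and Dmd. All 8 markers of differentiating muscle were lower in NF-YAcKO (FDR between 5.1e-05 and 0.00147, edgeR), with a summed level of 35.2 to 87.6 against 4212 to 6097 TPM, and none was at 0. All 6 macrophage markers were higher, at 135.0 to 262 against 3.41 to 12.9 TPM in sum. Of all tested genes, 7.67% were called lower and 4.65% higher. Most of the macrophage sum was Lyz2, at 124 to 244 against 2.05 to 9.66 TPM. Ptprc and Adgre1, with 0 to 5 and 1 to 8 counts in NF-YAfl/fl libraries, passed the count filter through the NF-YAcKO libraries alone. Ptprc alone among the 6 had 0 counts in a library (NF-YAfl/fl replicate 1). Of the 8 satellite cell and myoblast markers, Cdh15 and Des fell and Pax7, the defining marker, was at 35.2 ± 6.60 against 19.4 ± 3.69 TPM (SD, n = 3). In such bulk samples fewer cells of a type and less RNA per cell cannot be told apart.

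Filamins are long actin-crosslinking proteins with an actin-binding pair of calponin homology domains followed by a rod of immunoglobulin-like repeats, and they act as dimers that tie actin to membrane receptors and to the Z-disc, the boundary of the sarcomere. Filamin A (Flna) is found in most cell types, whereas filamin C (Flnc) is enriched in striated muscle, where it sits at Z-discs, myotendinous junctions and the sarcolemma. Igfn1 encodes a large muscle protein of immunoglobulin and fibronectin III domains, and Ky (kyphoscoliosis peptidase) encodes a Z-disc protein with a transglutaminase-like domain. The Ky protein is known to bind both Igfn1 and filamin C. Mutations of Ky give the kyphoscoliotic mouse, and the human genes for filamin C and KY are linked to myofibrillar myopathy.

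Igfn1 lies on the minus strand of chromosome 1 (135953205 to 136040925, GRCm38, the mm10 build). Its counts were 9010, 10776 and 5049 in NF-YAfl/fl replicates 1 to 3 and 9, 20 and 28 in NF-YAcKO replicates 1 to 3. In TPM these were 62.3, 69.0 and 28.6 against 0.05, 0.07 and 0.16. The NF-YAfl/fl libraries thus held at least 5049 reads of a gene for which each NF-YAcKO library held fewer than 30, and the genotypes did not overlap. The log2 fold change, NF-YAcKO over NF-YAfl/fl, was -9.15 (SE 0.43). By size it ranked 1 among the 530 autosomal genes called lower whose mean reached 10 CPM (counts scaled to the library size).

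The files split Igfn1 into 11 transcripts. In NF-YAfl/fl the form XR_001784087.1 took 39.3% ± 6.004 of the Igfn1 counts, XM_006529442.3 17.9% ± 0.605 and XM_017319947.1 16.2% ± 3.90 (SD, n = 3). These forms are of 10551, 4979 and 2844 nt, and counts are not scaled to length. As percent of the Igfn1 TPM the order differed. XM_017319947.1 held 36.2% ± 6.01, XR_001784087.1 22.9% ± 4.67 and XM_006529442.3 22.5% ± 0.929. XM_017319938.1 had 1179, 442 and 42.0 counts in NF-YAfl/fl replicates 1 to 3. No Igfn1 transcript had more than 12.3 counts in an NF-YAcKO library. Of the 11 forms, 7 passed the count filter through the NF-YAfl/fl libraries, and 4 had too few counts or none. Over all 45367 transcripts tested, 1.01% were called lower and 0.39% higher (FDR under 0.01 and a log2 fold change beyond 1 in size, as for genes). The Igfn1 forms repeat the contrast that chose the gene, and no call is given for them. Calls of transcripts rested on all 6 libraries, since leaving out 1 library reduced the transcripts called lower over all genes from 456 to between 0 and 126 (0 without NF-YAcKO replicate 2 or 3, where 4155 and 4428 had an unadjusted p under 0.05). With 9 to 28 Igfn1 counts per NF-YAcKO library, the make-up of its transcripts could not be compared between genotypes at this depth.

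Ky, on the plus strand of chromosome 9 (102505755 to 102546247), was a low gene in both genotypes. It had 150, 62 and 75 counts in the NF-YAfl/fl libraries and 4, 6 and 7 in the NF-YAcKO libraries. On the TPM scale this was 1.29, 0.59 and 0.45 against 0.03, 0.03 and 0.04. The genotypes did not overlap, and NF-YAfl/fl replicate 1 stood well above the other NF-YAfl/fl libraries. The log2 fold change was -4.48 (SE 0.54). Of the NF-YAfl/fl counts, 83.5% ± 17.5 (SD, n = 3) were assigned to the transcript NM_024291.3. At 4 to 7 counts per library, Ky transcripts could not be split in NF-YAcKO.

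**Figure D1:**
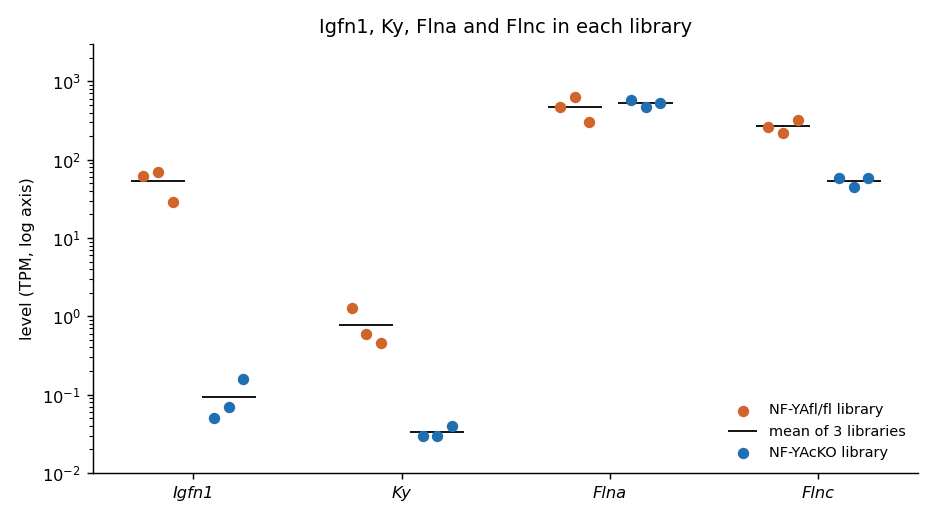
Levels of Igfn1, Ky, Flna and Flnc in TPM on a log axis, with 1 point per library (orange, NF-YAfl/fl; blue, NF-YAcKO) and a line at the mean of 3 libraries. Igfn1 was at 28.6 to 69.0 TPM in NF-YAfl/fl and 0.05 to 0.16 in NF-YAcKO, while the points of Flna overlap between genotypes.

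The filamin genes Flna and Flnc did not move alike. Flnc, on the plus strand of chromosome 6 (29433153 to 29461889), had 54544, 47722 and 88678 counts in NF-YAfl/fl and 14290, 17364 and 20323 in NF-YAcKO libraries. Its level was 264, 219.8 and 318.0 TPM against 57.6, 45.2 and 58.6 TPM. The genotypes did not overlap and the lowest NF-YAfl/fl library was the second. The log2 fold change of Flnc was -2.27 (SE 0.27), which ranked 221 of the 530 falls named above. Flnc thus stayed at 45.2 TPM or more in each NF-YAcKO library, where Igfn1 did not pass 0.16 TPM.

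Flna, on the minus strand of the X chromosome (74223461 to 74249854), was above Flnc in TPM in all NF-YAcKO libraries and in NF-YAfl/fl replicates 1 and 2. Its levels were 477, 640.0 and 299.8 TPM in NF-YAfl/fl and 579, 467 and 523 TPM in NF-YAcKO, which overlap. In CPM the NF-YAcKO libraries (4201, 3977 and 3911) were each above the NF-YAfl/fl libraries (3515, 3850 and 2639). The log2 fold change was 0.27 (SE 0.17). Among 527 tested genes of the X chromosome, with Flna counted and Xist left out, the median log2 fold change was 0.10, and 5.5% were called higher and 10.1% lower.

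The ratio of Flna to Flnc, on the TPM scale, was 10.05, 10.3 and 8.92 in NF-YAcKO replicates 1 to 3 and 1.80, 2.91 and 0.943 in NF-YAfl/fl. Flnc was above Flna in NF-YAfl/fl replicate 3 only. In that library Flnc was at its highest of the genotype, while Igfn1, Ky and Flna were at their lowest in TPM. Without it the log2 fold change was -1.96 for Flnc and 0.13 for Flna. The library also stood apart in markers of other cell types. All 6 fibro-adipogenic markers were lowest there among the NF-YAfl/fl libraries, as were all 6 smooth muscle and pericyte markers. For example, Pdgfra was at 22.9, 31.1 and 3.13 TPM and Cnn1 at 31.0, 40.1 and 0.58 TPM in replicates 1 to 3. Of 8 satellite cell and myoblast markers 3 were highest there and 3 lowest. Myod1 was at 240.1, 239.6 and 632 TPM, and Des at 590, 574 and 460 TPM. Of 8 differentiating muscle markers 6 were lowest there and 2 highest. The part of these markers in the Flna and Flnc values was not tested. The ratios are built from the levels that chose the genes and carry no test.

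**Figure D2:**
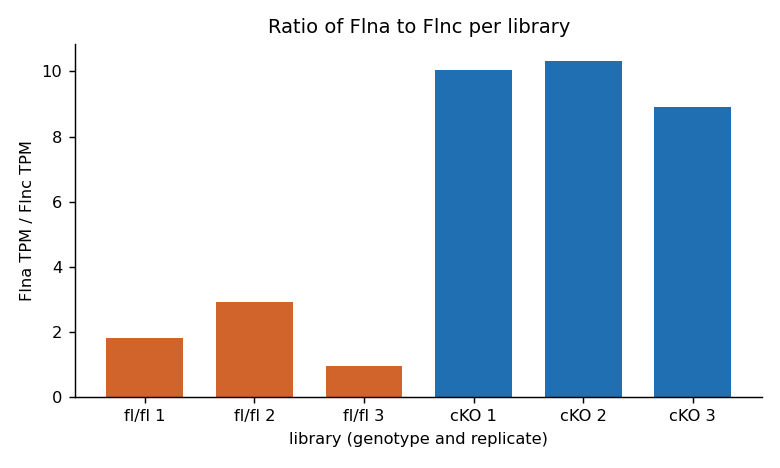
Ratio of Flna to Flnc in TPM in each library, as bars from 0. The NF-YAcKO libraries lay between 8.92 and 10.3 and the NF-YAfl/fl libraries between 0.943 and 2.91.

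The files also divide Flnc between its RefSeq forms NM_001081185.1 and NM_001311074.1. In the GENCODE models of these forms the difference is exon 31 of 48 (chr6:29452799-29452897, plus strand, GRCm38). It has 99 bases and is in frame, so that it adds 33 codons. The RefSeq entries that were quantified differ in length by 200 nt beyond this exon. This alternative exon encodes the hinge in the rod of filamin C, and its omission is a known feature of muscle filamin C. It is shown because the share of the forms is a measurement that did not choose the gene. The lines give the joined exons with 30 bases on each side, and capitals mark the alternative exon:
Flnc with exon: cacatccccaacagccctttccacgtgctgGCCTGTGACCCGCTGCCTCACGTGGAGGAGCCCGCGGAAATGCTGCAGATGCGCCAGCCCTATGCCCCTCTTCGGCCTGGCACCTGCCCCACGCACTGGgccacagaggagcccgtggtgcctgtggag
Flnc without exon: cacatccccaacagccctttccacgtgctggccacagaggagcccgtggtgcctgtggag

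The form with the exon made up 88.4%, 81.9% and 81.7% of the Flnc counts in NF-YAcKO replicates 1 to 3, and 36.9%, 35.0% and 44.1% in NF-YAfl/fl. Thus most Flnc counts were assigned to the longer form in every NF-YAcKO library and to the shorter form in every NF-YAfl/fl library. The means were 84.0% ± 3.78 and 38.7% ± 4.83 (SD, n = 3), a difference of 45.3 percentage points. An exact permutation test gave p = 0.1 (two-sided, n = 3 per genotype), the smallest value that 3 libraries against 3 allow, and 0.16 after adjustment over the 8 shares tested.

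In levels, the form without the exon was at 169, 144.5 and 180.3 TPM in NF-YAfl/fl and 6.91, 8.39 and 11.0 TPM in NF-YAcKO. The form with the exon was at 95.4, 75.2 and 137.7 TPM in NF-YAfl/fl and 50.7, 36.8 and 47.6 TPM in NF-YAcKO. Both forms were lower in NF-YAcKO without overlap, and the shorter form by more. As a description, the log2 fold changes were -4.14 (SE 0.31) for the shorter and -1.15 (SE 0.35) for the longer form.

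A fit of relative transcript use across 37881 transcripts of 9470 genes, chosen after the data had been seen, gave a log2 difference in use of -1.91 for the shorter form (FDR 0.0231, edgeR diffSpliceDGE) and 1.08 for the longer form (FDR 0.284). Neither form was called at an FDR under 0.01, and 0.705% of all transcripts were. By p-value the shorter form ranked 349 of 37881. The lengths of the forms in the files, 9166 and 8867 nt, differ by 299 nt, which is 200 nt more than the exon, so that the split of reads need not rest on this exon alone. Differentiating muscle markers were lower in the same libraries, and their part in the Flnc shares was not tested.

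**Figure D3:**
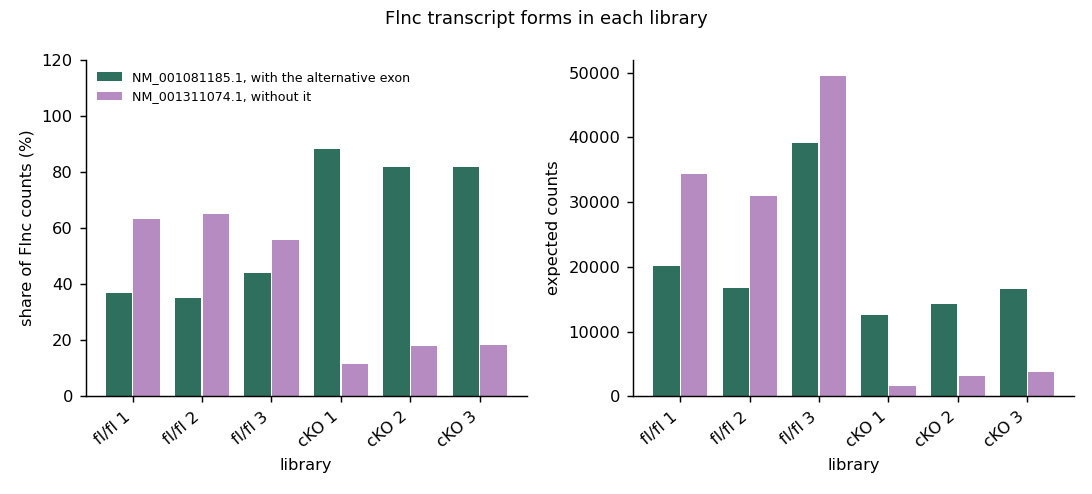
Flnc forms with (green) and without (violet) the alternative exon in each library, as the share of Flnc counts in percent and in expected counts. The form without the exon had 31020 to 49530 counts in NF-YAfl/fl and 1664 to 3722 in NF-YAcKO libraries, and the form with it had 16702 to 39148 and 12626 to 16601.

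The shares of the main Flna transcripts overlapped between genotypes. NM_010227.3 held 50.3% ± 2.14 of Flna counts in NF-YAcKO and 44.1% ± 6.20 in NF-YAfl/fl (SD, n = 3), a difference of 6.26 percentage points (exact permutation test, two-sided, p = 0.3). XM_006527911.3 held 44.4% ± 2.66 against 48.4% ± 4.90 (exact permutation p = 0.3, n = 3). XR_001782741.1 held 4.75% ± 0.49 against 5.63% ± 1.25 (exact permutation p = 0.4, n = 3). A form with an added exon of 24 bases (NM_001290421.1) received 0.0479% of Flna counts in NF-YAcKO and 0.400% in NF-YAfl/fl, where NF-YAfl/fl replicate 3 alone had 0.953%. Another minor form, XM_017318433.1, held 0.432% ± 0.114 against 1.47% ± 0.79 (SD, n = 3), without overlap. Its share was too small for the permutation test, and its use was not called (FDR 0.136, edgeR diffSpliceDGE).

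**Figure D4:**
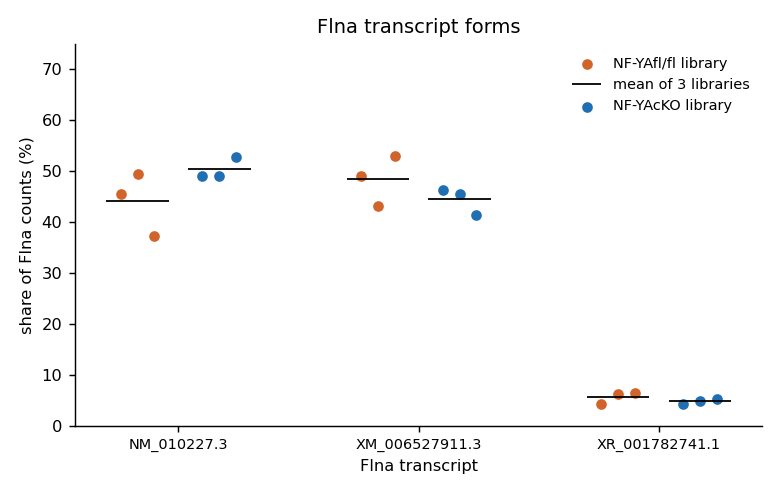
Shares of Flna counts assigned to each Flna form whose mean share over both genotypes reached 5%, with 1 point per library (orange, NF-YAfl/fl; blue, NF-YAcKO) and a line at the mean of 3. The 3 forms overlap between genotypes.

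The 250 bases before the first RefSeq start of Flnc (chr6:29432903-29433152, plus strand, GRCm38.p6) hold 1 CCAAT, in capitals, at position -194 from the start, and are shown for this pentamer:
Flnc promoter: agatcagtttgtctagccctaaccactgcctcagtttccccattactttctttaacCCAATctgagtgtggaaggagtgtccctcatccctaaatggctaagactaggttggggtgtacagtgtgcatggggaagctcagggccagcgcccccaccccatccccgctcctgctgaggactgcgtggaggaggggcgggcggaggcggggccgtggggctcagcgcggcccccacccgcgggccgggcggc
No CAGCTG (an E-box), MEF2 box or CArG box was found in this window, and the window of a second RefSeq start of Flnc held none of the 4 motifs. The windows of Igfn1, Ky and Flna held 0 CCAAT, 0 MEF2 boxes and 0 CArG boxes. Of these only that of Igfn1 held a CAGCTG (1, at -193). Those of Ky and Flna overlap an annotated exon. The windows of Igfn1 (chr1:136006343-136006592), Ky (chr9:102505888-102506137) and Flna (chrX:74246535-74246784) lie within the spans given above for these genes. That of Igfn1 precedes the start of NM_177642.3, a form with 3.36% ± 1.64 of Igfn1 counts in NF-YAfl/fl (SD, n = 3). No other start of Igfn1, Ky or Flna was searched. CCAAT on either strand was found in 33.8% of 32851 RefSeq windows of this length, CAGCTG in 13%, the MEF2 box in 2.92% and the CArG box in 1.47%. These are matches of letters, and no binding was measured here.

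The protein partners were described by lists. Over all tested genes 7.67% were called lower and 4.65% higher, and in CPM all NF-YAcKO libraries lay below all NF-YAfl/fl libraries in 26.2% and above them in 29.1%. The median log2 fold change of all genes was -0.02. Of 18 genes for proteins that bind filamins at the Z-disc or the membrane, 12 fell, 6 were not called, and 14 had all NF-YAcKO libraries below. Their median log2 fold change was -2.08.

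Myot, encoding the Z-disc protein myotilin, fell from 8.64 ± 2.84 to 0.06 ± 0.0436 TPM (SD, n = 3; log2 fold change -7.06, FDR 0.000292, edgeR). Myoz2, which encodes a calsarcin of the Z-disc, fell from 11.9 ± 5.69 to 0.107 ± 0.0252 TPM. In the NF-YAcKO libraries Myot had 2 to 9 counts and Myoz2 3 to 5. Both thus passed the count filter through the NF-YAfl/fl libraries alone, and the size of their falls rests on these few counts. Ldb3, for a PDZ-LIM protein of the Z-disc, fell from 77.4 ± 8.44 to 1.34 ± 0.193 TPM. The not-called members with the highest levels were Itgb1, the beta1 integrin subunit (287 ± 21.8 TPM in NF-YAcKO and 313 ± 84.7 in NF-YAfl/fl), Fblim1, encoding migfilin (11.3 ± 1.66 and 13.8 ± 6.92), and Sgcd, encoding delta-sarcoglycan (5.61 ± 0.92 and 14.7 ± 9.06). The refilin genes, listed under the older symbols Fam101a and Fam101b, had log2 fold changes of -0.81 and 0.27 and were not called.

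Of 11 genes for the turnover of filamins, 4 fell and 7 were not called, with a median log2 fold change of -0.86. Capn3, the muscle calpain, fell from 22.3 ± 11.9 to 0.0467 ± 0.0208 TPM (log2 fold change -8.81, FDR 0.000177, edgeR). With 2 to 7 counts in the NF-YAcKO libraries, Capn3 passed the count filter through the NF-YAfl/fl libraries alone, and the size of its fall rests on these few counts. Asb2, a ubiquitin ligase subunit that targets filamins for degradation, fell from 10.7 ± 4.03 to 0.807 ± 0.136 TPM. Hspb8, the small heat shock partner of the co-chaperone Bag3, fell from 270.3 ± 24.7 to 41.5 ± 4.54 TPM, and Hspb7, which binds filamin C, from 18.8 ± 6.31 to 3.27 ± 0.924 TPM. Hspa8, the constitutive Hsp70, was at 2008 ± 63.9 TPM in NF-YAcKO and 1561 ± 302 in NF-YAfl/fl, Sqstm1, the autophagy receptor p62, at 360.1 ± 27.6 and 269 ± 34.5, and Hspb1 at 126 ± 7.49 and 241 ± 24.6. None of these 3 was called.

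Of 3 known Igfn1 partners, Cobl, encoding an actin nucleator, fell from 9.82 ± 2.45 to 1.60 ± 0.304 TPM (SD, n = 3; log2 fold change -2.64, FDR 0.0015, edgeR). The elongation factor genes Eef1a1 (7002 ± 371 TPM in NF-YAcKO, 5434 ± 540.1 in NF-YAfl/fl) and Eef1a2 (0.50 ± 0.182 and 0.28 ± 0.191) were not called. Without NF-YAcKO replicate 2, Cobl was no longer called (0 of 3 genes, edgeR), and 2 of the 3 genes had an unadjusted p under 0.05.

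Igfn1 shares immunoglobulin domains, in most cases together with fibronectin III domains, with a list of mainly sarcomeric proteins. Of the 14 genes listed 12 were tested, and all 12 fell, with a median log2 fold change of -5.60. The count was 11 under the replicate block and without 5 of the 6 libraries in turn, and 10 with limma. Mybpc2, singled out after its values were seen, was nearest the limit, with an FDR of 0.00967 (edgeR) and 3 to 8 counts in the NF-YAcKO libraries. Mybpc3 and Mybphl did not pass the count filter. Mybph, a myosin-binding protein gene, fell from 229.1 ± 45.9 to 1.31 ± 0.539 TPM (log2 fold change -7.35, FDR 6.16e-05, edgeR). Myom2, the M-band myomesin 2, fell from 67.3 ± 15.7 to 0.423 ± 0.176 TPM, and Mypn, the Z-disc protein myopalladin, from 19.1 ± 0.86 to 0.18 ± 0.0819 TPM.

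Filamins share their actin-binding calponin homology domains with 17 further genes tested. Of these 6 fell, 1 rose and 10 were not called, and the median log2 fold change was -0.94. Actn2 and Actn3, the muscle alpha-actinins, fell from 184 ± 16.3 to 0.66 ± 0.318 TPM and from 131 ± 46.7 to 7.39 ± 1.99 TPM. Their non-muscle relatives Actn1 (156 ± 23.0 in NF-YAcKO and 143 ± 51.9 in NF-YAfl/fl) and Actn4 (133 ± 16.5 and 153 ± 27.8) overlapped between genotypes and were not called. Dmd, encoding dystrophin, fell from 18.8 ± 4.73 to 5.25 ± 0.845 TPM (log2 fold change -3.22, FDR 9.13e-05, edgeR). This log2 fold change is of counts and is larger than the fall in TPM. Over 15 alternatives it was -3.35 to -1.64. Plec, encoding plectin, was at 116 ± 12.0 TPM in NF-YAcKO and 237 ± 35.7 in NF-YAfl/fl, with an FDR of 0.00265 (edgeR) and a log2 fold change of -0.94, short of the fold limit. Lcp1, encoding L-plastin of blood cells, rose from 0.243 ± 0.0493 to 3.97 ± 1.26 TPM (FDR 0.000284, edgeR). The macrophage markers rose in the same libraries (135.0 to 262 against 3.41 to 12.9 TPM in sum), and their part in the Lcp1 value was not tested.

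**Figure D5:**
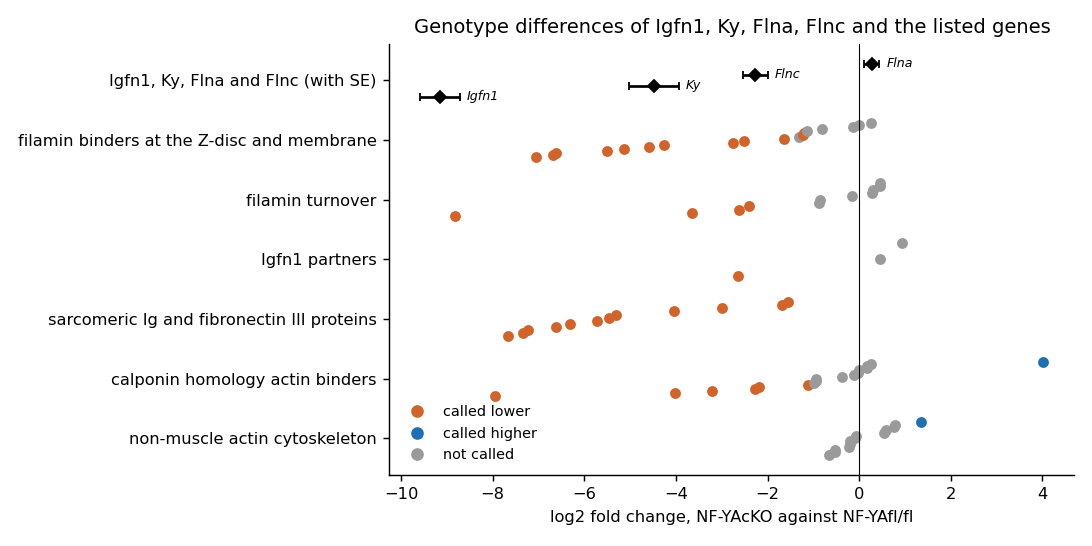
Log2 fold changes, NF-YAcKO over NF-YAfl/fl, of Igfn1, Ky, Flna and Flnc (black, with SE) and of each tested gene of 6 lists (orange, called lower; blue, called higher; grey, not called). All 12 tested genes of the list named for sarcomeric immunoglobulin and fibronectin III proteins lie below -1, though not all encode both domains. Lcp1 and Tagln2 are the points called higher.

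Of 13 genes of the non-muscle actin cytoskeleton, in which Flna works, 1 rose and 12 were not called, and the median log2 fold change was -0.09. Tagln2, encoding the actin-binding transgelin 2, rose from 140.7 ± 74.5 to 319 ± 36.4 TPM (SD, n = 3; log2 fold change 1.34, FDR 0.00742, edgeR). Actb and Actg1, the cytoplasmic actins, were at 4626 ± 396 and 2403 ± 238 TPM in NF-YAcKO and 2964 ± 1108 and 1499 ± 400.4 TPM in NF-YAfl/fl, with log2 fold changes of 0.77 and 0.79, and Tpm4, a cytoskeletal tropomyosin, was at 567 ± 66.3 and 428 ± 192 TPM. The Tagln2 call was absent with limma and without NF-YAcKO replicate 1, 2 or 3 or NF-YAfl/fl replicate 1, where 0 of the 13 genes were called and 5 to 7 had an unadjusted p under 0.05.

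Genes beside or within the 4 loci were read from the same fit, 5 tested genes on each side. Around Igfn1, 4 of 10 fell. These were Tnnt2 and Tnni1, encoding troponin subunits (CPM from 293 ± 102 to 44.3 ± 8.32 and from 674 ± 200.1 to 11.3 ± 2.16), Cacna1s, the voltage sensor subunit of the muscle calcium channel (291 ± 49.4 to 0.867 ± 0.486), and Tmem9, which lies within the span given for Igfn1 (136008219 to 136035030; 47.0 ± 5.61 to 20.3 ± 1.03, log2 fold change -1.21, FDR 0.000724, edgeR). Around Ky 2 of 10 fell, the ephrin receptor gene Ephb1 (2.18 ± 1.05 to 0.441 ± 0.117 CPM) and Gm31326 (0.474 ± 0.176 to 0.0821 ± 0.0409 CPM). Gm31326 (101984393 to 101997549) lies within the span of Ephb1 (101922128 to 102354693). Ephb1 kept its call under 9 of 15 alternatives and Gm31326 under 5 of 14. Around Flnc 1 of 10 fell, the tetraspanin gene Tspan33 (18.2 ± 4.64 to 2.89 ± 1.52 CPM). Over all tested genes 7.67% were called lower. Around Flna 0 of 10 were called by edgeR, and 4 of them had an unadjusted p under 0.05. Without NF-YAcKO replicate 2 or without NF-YAfl/fl replicate 1, 4 rather than 7 of these neighbours were called.

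Genes with the most similar profile were named by Pearson's r over the 6 libraries of log2(CPM + 0.5), among tested genes whose mean reached 10 CPM. The libraries of a genotype lie together, so that r largely follows the genotype contrast for Igfn1, Ky and Flnc. For all 4 genes r is a description. For Igfn1, Dclk1, Itgb1bp2 and Scn4a were among the closest (r of 0.9996 to 0.9989), all called lower. Scn4a, the muscle sodium channel gene, was at 64.9 ± 15.8 CPM in NF-YAfl/fl and 0.36 ± 0.0752 in NF-YAcKO. For Flnc they were Sec14l1, Cobl, Dag1 and Dyrk2 (r of 0.9997 to 0.9992), of which Dag1 encodes dystroglycan and was at 314 ± 80.2 against 112 ± 4.49 CPM, and Cobl is the Igfn1 partner above. For Ky, Spopl, Reep5, Acadvl and Smpd1 were closest (r of 0.9982 to 0.9962), and none was called. For Flna, Rai14, Bcr, Capn2 and Cdr2l were closest (r of 0.9986 to 0.9981) and not called, and Capn2 encodes a calpain of the filamin turnover list. Flna and Capn2 were both lowest in NF-YAfl/fl replicate 3, at 2639 and 230 CPM. Between the genes themselves r was 0.95 for Igfn1 and Ky, 0.94 for Igfn1 and Flnc and -0.82 for Flna and Flnc.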

How the data were processed

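RNA-seq libraries of cultured SCs from 3 NF-YAcKO and 3 NF-YAfl/fl samples were analyzed, grouped by the genotype in the labels. The authors prepared stranded total RNA libraries, sequenced paired reads of 75 nt and used bowtie2 for alignment to transcripts of mm10 and RSEM 1.3.1 for quantification. The deposited expected counts are neither normalized nor filtered, and reads shared between transcripts or paralogs are split by estimate. The deposited TPM values were scaled by the authors' software to effective length and library. The deposited percent of each gene's TPM per transcript was an alternative for the shares. Deposited FPKM values and effective lengths were not used.

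Expected counts were rounded, and genes whose count exceeded 10 in 2 or more libraries were tested with edgeR 4.0.16 in R 4.3.3, by its quasi-likelihood test after TMM scaling. Genotype was the single term, and p-values were adjusted by the Benjamini-Hochberg method over all tested genes or transcripts. Calls needed an FDR below 0.01 with a log2 fold change beyond 1 in size, the limits of the study's methods, which used DESeq2. SE was derived from the F statistic (absolute log2 fold change over the root of F). Transcript shares were compared by exact permutation tests, adjusted over the 8 shares tested, of which 5 are reported. No interval for a share of counts is given, since all shares are over replicate libraries. As alternatives, DESeq2 1.42.0 and limma 3.58.1 (on log2(TPM + 1) and on log2(TPM + 0.1)) were run, and edgeR was repeated with DESeq2 scaling, with other filters (filterByExpr or none), on unrounded counts, at an FDR under 0.05, with a replicate block and without each library.

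The genes and lists were chosen with earlier results of these data known. In each list, the 4 called genes with the largest change and the 3 not-called genes with the highest mean TPM were named, with all called neighbours. Some genes that this rule names are not reported here. The refilin genes were named after their values were seen. Coordinates and promoter sequences are from RefSeq (GRCm38.p6) and exon sequences from the GENCODE transcripts of GRCm38. The MEF2 box is the AT-rich site of MEF2 factors and the CArG box that of SRF. Plots were drawn with matplotlib 3.10.9.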

Additional observations from a re-analysis of the deposited data

How the results depend on the processing

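As a description of the values that chose the genes, the log2 fold change over 15 alternatives was -9.48 to -5.54 for Igfn1, -4.78 to -0.75 for Ky, 0.13 to 0.39 for Flna and -2.50 to -1.96 for Flnc. The values nearest 0 for Igfn1 (-5.54) and Ky (-0.75) came from limma on log2(TPM + 1), a scale that compresses low values. Leaving out a library gave -4.78 to -3.87 for Ky and -2.50 to -1.96 for Flnc. Over all genes, 231 (limma, TPM + 1) and 361 (TPM + 0.1) were called higher instead of 806, and 704 (TPM + 1) and 2025 (FDR under 0.05) lower instead of 1331. Without 1 library these counts were 176 to 903 and 522 to 1681. In the lists, calls were 0 to 1 for Igfn1 partners and 0 to 1 for the non-muscle actin cytoskeleton without 1 library, and 0 for the latter with limma on log2(TPM + 1) or log2(TPM + 0.1), where 6 of its genes had an unadjusted p under 0.05. Neighbours called were 4 to 7. The cause was not tested.

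The replicate block left 0 transcripts called higher and 0 lower (edgeR, with 4321 and 4065 at an unadjusted p under 0.05), and leaving out a library 1 to 51 and 0 to 126. Same-numbered libraries had correlations of 0.21, -0.10 and 0.05 between their deviations from the group means, and differently numbered ones -0.18 to 0.15. So few values cannot show whether same-numbered libraries shared a batch, and the labels do not say. Under the replicate block 625 genes were called higher and 947 lower, and the log2 fold changes were -9.08 for Igfn1, -4.31 for Ky, 0.29 for Flna and -2.20 for Flnc. For the Flnc form without the exon, the difference in use was -1.96 with the block (FDR 0.0676) and -2.03 to -1.73 without 1 library (FDR 0.00868 without NF-YAfl/fl replicate 3, the one setting that called it, and up to 0.148). The Flnc share of the form with the exon differed by 43.1 to 48.0 percentage points without 1 library.

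Among 51 other named genes, 724 values under alternatives kept their direction and side of the threshold, 29 were no longer called, 7 were newly called and 4 changed sign, all in genes not called. The sign changes were Itgb1 at 0.013 without a filter, 0.034 without NF-YAfl/fl replicate 1 and 0.025 without NF-YAfl/fl replicate 2, and Fblim1 at 0.10 without NF-YAfl/fl replicate 2 (down to -0.38 without replicate 3). Depth limits Igfn1 and Ky in NF-YAcKO, with 9 to 28 and 4 to 7 counts. With 3 libraries against 3 no share could fall below p = 0.1 in the exact permutation test.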
